A study of Mus musculus with 6 samples.

Results

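CD4 T cells, the helper and regulatory branch of the T cells, were picked out of droplet single-cell RNA libraries of mouse lung CD45+ cells by their own transcripts. Each captured RNA molecule was counted once through its unique molecular identifier (UMI). A cell barcode was taken as a CD4 T cell when it held at least 200 genes, at most 10% mitochondrial UMIs, at least 2 UMIs of the CD3 chain genes Cd3d, Cd3e and Cd3g together and at least 1 UMI of the co-receptor gene Cd4. It also had to hold 0 UMIs of Cd8a, Cd8b1, the B cell gene Cd79a and the natural killer cell gene Ncr1, under 5% of its UMIs from the neutrophil genes S100a8 and S100a9, at most 1 UMI of the macrophage genes C1qa, C1qb and C1qc together, and at most 1 of Csf3r. These rules kept 946 of the 61736 barcodes that passed the first 2 filters, from 64428 deposited barcodes. The members were thus chosen by the measured UMIs of the 14 genes of the rule, which were given no test.

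The 6 libraries came from the lungs of wild-type (WT) mice and of mice without NOS1 (NOS1 KO), the neuronal nitric oxide synthase, 4 h after an intraperitoneal injection of vehicle or of 10 mg/kg lipopolysaccharide (LPS), a cell wall component of Gram-negative bacteria. There was 1 WT vehicle library and 1 KO vehicle library, and 2 libraries each of WT LPS and KO LPS, written below as WT LPS 1, WT LPS 2, KO LPS 1 and KO LPS 2. All 6 were made from digested whole lungs after magnetic enrichment for CD45, the surface protein of blood-derived cells. Strain beyond mouse, age, sex and the number of animals behind a library are not given in the labels, nor whether replicate libraries came from separate animals, so p-values measure only the spread between these libraries.

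CD4 T cells read peptides on MHC class II through a T cell receptor that signals through the CD3 chains. Naive and central memory cells recirculate through lymph nodes with the help of Ccr7 and S1pr1 and depend on the transcription factors Tcf7 and Lef1, while regulatory T cells carry the factor Foxp3. LPS is sensed mainly by Toll-like receptor 4, which is abundant on myeloid cells, and these release interferons and other cytokines. Interferons act on T cells through JAK kinases and transcription factors such as IRF9, which switch on interferon-stimulated genes.

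The gate took 294 barcodes from WT vehicle, 467 from KO vehicle, 33 from WT LPS 1, 36 from WT LPS 2, 76 from KO LPS 1 and 40 from KO LPS 2. Their median UMI count per barcode was 2968.5 and 3842 in the WT and KO vehicle libraries, 5719 and 3963.5 in WT LPS 1 and 2, and 5168 and 3542 in KO LPS 1 and 2, so 3 of the 4 LPS libraries had deeper members than both vehicle libraries. Summed over members, the libraries held 1262225, 2568560, 230423, 207585, 704410 and 192442 UMIs in that order. These sums were the unit of every test, and levels are given as CPM, a gene's share of these sums scaled to a common total.

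The label was checked against marker genes. Cd3d, a gene of the rule, had a UMI in 87.9% to 97.5% of members across the 6 libraries, a share the rule fixes in part. The B cell gate, a set of 8994 barcodes from the same libraries, served as a cell type outside the T cells. It excluded every barcode with a CD3 UMI, so its 0% for Cd3d was fixed in advance. That exclusion can also lower its shares of other T cell genes, such as Trbc2 and Foxp3. Trbc2, a constant region gene of the T cell receptor that the rule did not use, had a UMI in 87.5% to 97.2% of members and in at most 2.37% of B cell barcodes. Tcf7 was seen in 78.6% and 84.8% of members of the vehicle libraries and in 38.9% to 76.3% of those of the LPS libraries. Il7r, the interleukin-7 receptor chain that keeps resting T cells alive, was seen in 73.4% to 85.0% of members in every library.

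The gate rested on few UMIs of Cd4. Exactly 1 Cd4 UMI was found in 223 of 294, 311 of 467, 26 of 33, 25 of 36, 59 of 76 and 32 of 40 members in the library order above, and exactly 2 CD3 UMIs in 13, 10, 3, 9, 7 and 9. Just outside the rule, 13, 7, 4, 7, 6 and 3 barcodes met every condition but held 1 CD3 UMI. A further 590, 620, 143, 169, 243 and 209 barcodes held 2 or more CD3 UMIs without Cd4 or CD8 UMIs, so the gate counts T cells in which Cd4 was captured and not all CD4 T cells.

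Some members carried RNA of other cells. In 157 members, genes of neutrophils, monocytes and macrophages, B cells, endothelial and epithelial cells, or erythroid cells and platelets together made up at least 0.5% of UMIs. Genes of natural killer and innate lymphoid cells were not part of this rule, so members with such RNA were not set aside by it. These mixed barcodes were 16.3% and 16.7% of members in the WT and KO vehicle libraries, 9.09% and 16.7% in WT LPS 1 and 2, and 25% and 7.5% in KO LPS 1 and 2. They were deep, and held 42.0%, 38.3%, 24%, 31.1%, 56.5% and 26.1% of the members' UMIs in that order. The deepest, with 90185 UMIs, lay in KO LPS 1, and platelet and erythroid genes made up 0.367% of that library's member UMIs against at most 0.000868% elsewhere. The counts of called genes below are therefore also given over the 789 other members, called the unmixed cells. Of the mixed barcodes, 49 were also among the 60 members with the highest Scrublet doublet scores.

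Marks of sex differed between the libraries. The X-inactivation transcript alone was found in 317 members of KO vehicle and in 27 of each WT LPS library, Y-linked genes alone were found in 129 members of WT vehicle, and KO LPS 1 and 2 held both kinds, in 31 and 14 against 18 and 11 members. In WT, vehicle members with a mark had only Y-linked genes and LPS members only Xist, so sex and treatment cannot be told apart there. Between the vehicle libraries, sex and genotype likewise cannot be told apart. Each KO LPS library held cells of both sexes, and so of more than 1 animal. Sex, treatment and genotype cannot be told apart where they changed together, and Xist and Y-linked genes were read as marks of sex only. Nos1 gave 1 UMI over all members, in KO vehicle, and so does not check the genotype labels. Across libraries, 14 members shared their barcode sequence with a barcode of another library.

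CD4 T cells made up a smaller share of the lung CD45+ barcodes after LPS. Their share was 2.84% and 5.43% in the WT and KO vehicle libraries against 0.306% and 0.298% in WT LPS 1 and 2 and 0.656% and 0.477% in KO LPS 1 and 2. The LPS libraries averaged 0.434% ± 0.169 (SD, n = 4) and did not overlap the vehicle libraries, whose mean was 4.14%. The exact two-sided permutation test over the 6 libraries gave p = 0.133, the smallest value that 4 against 2 libraries allow. Counting unmixed cells alone, the means were 0.365% and 3.45%, with the same p. A share says nothing of the number of cells per lung, which the files do not give. The B cell gate shrank as well, from 2732 and 2065 barcodes in the vehicle libraries to between 763 and 1460 in the LPS libraries.

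CD4 gate barcodes also made up a smaller part of the CD4 and CD8 gate barcodes after LPS. Of the CD4 and CD8 gate barcodes together, CD4 cells were 29.9% and 43.1% in WT and KO vehicle, 19.0% and 21.1% in WT LPS 1 and 2, and 23.4% and 18.5% in KO LPS 1 and 2. The LPS libraries averaged 20.5% ± 2.23 (SD, n = 4) and lay below both vehicle libraries (exact two-sided permutation test, p = 0.133, again the smallest possible). CD3 gate barcodes with neither Cd4 nor CD8 UMIs lay outside this ratio. They were 590 of 1591 and 620 of 1772 CD3 gate barcodes in WT and KO vehicle. After LPS they were 143 of 320 and 169 of 342 in WT, and 243 of 579 and 209 of 428 in KO. Whether fewer captured Cd4 UMIs lowered the CD4 part was not tested. Since the gate needs a Cd4 UMI, barcodes with at least 2000 UMIs were also thinned to 2000 UMIs before gating, and shallower ones were left out. This loss was unequal, and largest in WT vehicle, where 7418 of 10338 filtered barcodes were kept. The difference from the vehicle mean was then -9.79 percentage points in place of -16.03, with the same p. The 43.1% of KO vehicle lay above the 29.9% of WT vehicle beyond counting error, with exact 95% binomial intervals of 40.1% to 46.1% and 27.1% to 32.9%, but each genotype had 1 vehicle library and no test was made. The vehicle libraries also differed in their marks of sex.

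**Figure D1:**
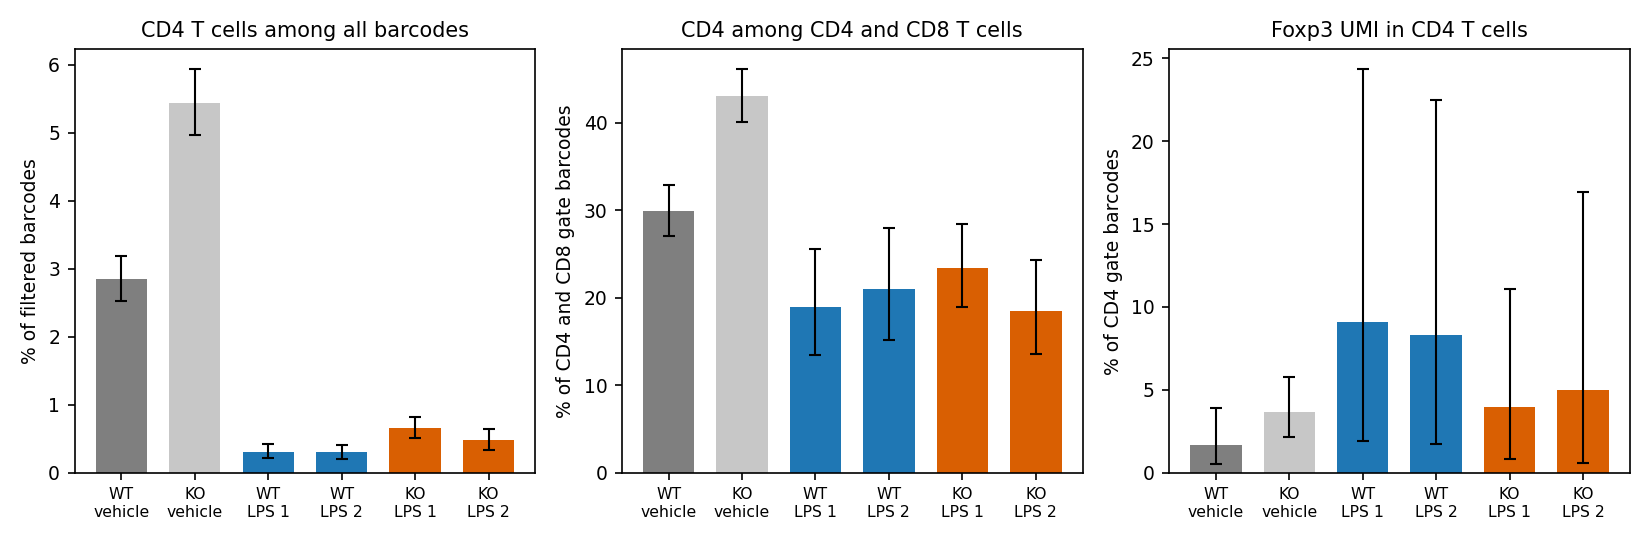
Share of CD4 gate barcodes among all filtered barcodes, among CD4 and CD8 gate barcodes, and share of CD4 gate barcodes with a Foxp3 UMI, in percent, for each of the 6 libraries. Bars are library values and error bars exact 95% binomial intervals, which cover counting error only. The 4 LPS libraries lie below both vehicle libraries in the first 2 panels, and the Foxp3 intervals overlap.

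Regulatory T cells marked by Foxp3 were few. A Foxp3 UMI was found in 5 of 294 members of WT vehicle (1.70%), 17 of 467 of KO vehicle (3.64%), 3 of 33 of WT LPS 1 (9.09%), 3 of 36 of WT LPS 2 (8.33%), 3 of 76 of KO LPS 1 (3.95%) and 2 of 40 of KO LPS 2 (5.00%). Foxp3 was seen in at most 0.0890% of B cell barcodes in any library, at median depths of 2017.5 to 4476 UMIs, and in 0.291% to 1.42% of CD8 gate barcodes. All 4 LPS libraries lay above both vehicle libraries, with an exact permutation p of 0.133, the smallest possible. That order rested on 11 Foxp3 barcodes after LPS. The permutation p was 0.267 in the unmixed cells and 0.8 when barcodes were thinned to 2000 UMIs before gating and shallower ones left out. After that thinning the difference was 2.43 in place of 3.92 percentage points. No library held 20 Foxp3 barcodes, so genes were not compared between Foxp3-positive and Foxp3-negative cells.

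The expression response to LPS was large and mostly upward. Of 7226 genes tested with edgeR's quasi-likelihood test over all 6 libraries, 238 rose (3.29%) and 36 fell (0.498%) at a Benjamini-Hochberg adjusted p of at most 0.05, which is 3.79% of genes called. Fold changes are the mean of the LPS groups minus the mean of the vehicle groups on the log2 scale. edgeR draws the spread of each gene partly from all genes together, so very small p-values rest on that shared estimate. In the unmixed cells 506 of 4539 genes rose (11.1%) and 236 fell (5.2%), 16.3% in all, and 242 of the 274 genes called over all members were called there too, all in the same direction. Counts by gene list below are to be read against these shares over all genes. The count moved with single libraries. A fit without 1 LPS library has 1 residual degree of freedom, from the genotype that keeps its pair, and assumes that the lone library varies like that pair. Calls were 144 higher and 9 lower without WT LPS 1, 160 and 24 without WT LPS 2, 369 and 191 without KO LPS 1, and 666 and 310 without KO LPS 2. By simple order, 2127 genes (29.4%) had all 4 LPS libraries on the same side of both vehicle libraries.

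Interferon-stimulated genes made up the strongest group. Of 41 such genes, 38 rose, none fell and the median log2 fold change was 3.39, against -0.03 over all 7226 genes. The 3 without a call were Irf9, Ifi213 and Ly6c2, all with positive fold changes, and the first 2 of them rose in the unmixed cells, where 40 of 41 were called. With any single LPS library left out, between 37 and 41 of the 41 were called.

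Isg15, a ubiquitin-like protein that is attached to other proteins during viral infection, stood at 30.4 and 50.2 CPM in the WT and KO vehicle libraries, 3540 and 2109 in WT LPS 1 and 2, and 2089 and 789 in KO LPS 1 and 2. Every LPS library lay above both vehicle libraries, WT LPS 1 was the highest and KO LPS 2 the lowest of the 4. The log2 fold change was 5.69 ± 0.54 (SE), with edgeR adjusted p = 0.00196. Ifit3, whose protein binds viral RNA together with Ifit1, was at 6.24 and 15.2 CPM in the vehicle libraries, 1025 and 535 in WT LPS and 662 and 487 in KO LPS (log2 fold change 6.09 ± 0.46 (SE), edgeR adjusted p = 0.00098). Isg20, an exonuclease, went from 15.6 and 30.7 CPM to 1466 and 1054 in WT LPS and 827 and 656 in KO LPS (5.46 ± 0.34 (SE) on the log2 scale, edgeR adjusted p = 0.00057). For both genes the lowest LPS library stood above both vehicle libraries.

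Some of the largest fold changes among the interferon genes leaned on 1 barcode in KO LPS 1. Rsad2, the antiviral protein viperin, was at 1.56 and 6.50 CPM in the vehicle libraries, 622 and 409.7 in WT LPS and 3429 and 261 in KO LPS. Rsad2 was found in 28, 30, 48 and 19 members of the LPS libraries in order, but a single barcode gave 77.8% of the Rsad2 UMIs of KO LPS 1, and likewise 81.0% of the Ifit1 UMIs there, so most of the KO LPS 1 value of each gene came from 1 barcode. Over the unmixed cells Rsad2 still rose by 6.86 on the log2 scale (edgeR adjusted p = 1.62e-12), against 8.19 over all members. Ifit3b, with 0.78 to 4.69 CPM before and 149 to 246 CPM after LPS, rose by 6.41 ± 0.43 (SE) (edgeR adjusted p = 0.000614), and Ifi44 by 5.23 ± 0.62 (SE) (edgeR adjusted p = 0.00421).

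Transcription factors of the interferon pathway rose in part. Irf7, which drives further type I interferon production, was at 30.4 and 45.9 CPM in the vehicle libraries, 738 and 575 in WT LPS and 424 and 256 in KO LPS (3.66 ± 0.36 (SE), edgeR adjusted p = 0.00196). Irf1 rose by 2.42 ± 0.28 (SE) (edgeR adjusted p = 0.00373), whereas Irf9 had 51.5 and 60.7 CPM before and 108 to 125 after LPS. Irf9 was not called over all members (1.04, edgeR adjusted p = 0.109) but passed in the unmixed cells (0.90, edgeR adjusted p = 0.0266). Its fold change over all members lay between 0.95 and 1.08 with any 1 LPS library left out. Ly6a, the surface protein Sca-1, was already present before LPS, with 146 and 148 CPM in the vehicle libraries against 2083 and 1624 in WT LPS and 1464 and 1635 in KO LPS (3.53 ± 0.26 (SE), edgeR adjusted p = 0.00098). The LPS level of Ly6a in CD4 T cells was 362% of its level over all barcodes of the same libraries. For Isg15 the figure was 56.7% and for Cxcl10 50.4%, and the part of free RNA in those 2 was not tested.

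The promoters of 4 genes that rose are shown because interferon-responsive factors are known to bind repeated GAAA. They are the 250 bases before the transcription start from RefSeq (GRCm38.p6, the same assembly as mm10), written 5′ to 3′ along the gene, with matches in capitals to an interferon response element core (GAAA, any 2 bases, GAAA) or to a kappa B motif of NF-kB (GGGA, any 2 bases, TTCC). Isg15 lies on the minus strand (chr4:156200819-156201068), Ifit3 on the plus strand (chr19:34583279-34583528), and Cxcl10 (chr5:92348890-92349139) and Socs1 (chr16:10785537-10785786) on the minus strand.
Isg15: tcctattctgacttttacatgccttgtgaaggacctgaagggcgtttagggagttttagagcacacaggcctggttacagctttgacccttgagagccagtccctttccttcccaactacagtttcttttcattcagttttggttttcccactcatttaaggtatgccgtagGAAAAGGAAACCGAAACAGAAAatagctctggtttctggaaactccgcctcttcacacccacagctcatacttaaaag
Ifit3: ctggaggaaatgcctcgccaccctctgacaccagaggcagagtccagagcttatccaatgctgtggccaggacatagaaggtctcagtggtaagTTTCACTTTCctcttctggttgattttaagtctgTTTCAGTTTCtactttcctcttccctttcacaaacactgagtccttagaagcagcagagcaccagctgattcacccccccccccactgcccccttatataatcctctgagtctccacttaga
Cxcl10: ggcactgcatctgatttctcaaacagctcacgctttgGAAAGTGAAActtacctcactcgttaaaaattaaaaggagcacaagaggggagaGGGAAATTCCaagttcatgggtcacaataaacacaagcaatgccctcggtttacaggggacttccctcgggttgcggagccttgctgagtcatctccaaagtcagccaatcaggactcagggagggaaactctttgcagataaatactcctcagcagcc
Socs1: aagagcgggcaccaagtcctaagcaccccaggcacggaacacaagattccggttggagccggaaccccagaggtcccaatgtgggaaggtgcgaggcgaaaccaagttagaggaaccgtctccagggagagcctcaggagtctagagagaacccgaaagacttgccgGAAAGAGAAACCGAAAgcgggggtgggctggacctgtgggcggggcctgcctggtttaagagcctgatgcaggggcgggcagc

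Isg15 held 3 overlapping interferon matches between 78 and 57 bases before its start, and Socs1 held 2 overlapping ones between 83 and 68 bases before. In Ifit3 the 2 matches, at 156 to 147 and 122 to 113 bases before the start, read on the opposite strand. Cxcl10 had its interferon match at 213 to 204 and a kappa B match at 159 to 150 bases before the start. With both strands searched, the interferon core stood in 978 of 32851 promoter windows of this length in the table (2.98%), in 18 of 42 windows of the interferon-stimulated list (42.9%, 33 of its 41 genes matched by name) and in 0 of 25 windows of the naive T cell list. Among genes called higher after LPS it stood in 49 of 238 windows (20.6%, 194 of 238 genes matched), and among those called lower in 2 of 44 (4.55%, 28 of 36 genes matched). A match describes letters and is not a bound site.

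In the LPS libraries most CD4 T cell barcodes held many UMIs of interferon-stimulated genes. The part of free RNA in these UMIs was not tested. With each barcode thinned to 2000 UMIs, the 41 interferon-stimulated genes together gave a median of 4 and 6 UMIs per barcode in WT and KO vehicle. The medians were 69 and 67 in WT LPS 1 and 2, and 47 and 51 in KO LPS 1 and 2. At least 20 UMIs were found in 1.82% and 5.47% of vehicle barcodes, in 97.0% and 94.4% of WT LPS barcodes and in 82.4% and 80.6% of KO LPS barcodes. The 10th percentile of the LPS libraries, between 12.5 and 42.8 UMIs, was above the vehicle medians. Thinning left out 36 shallower members.

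**Figure D2:**
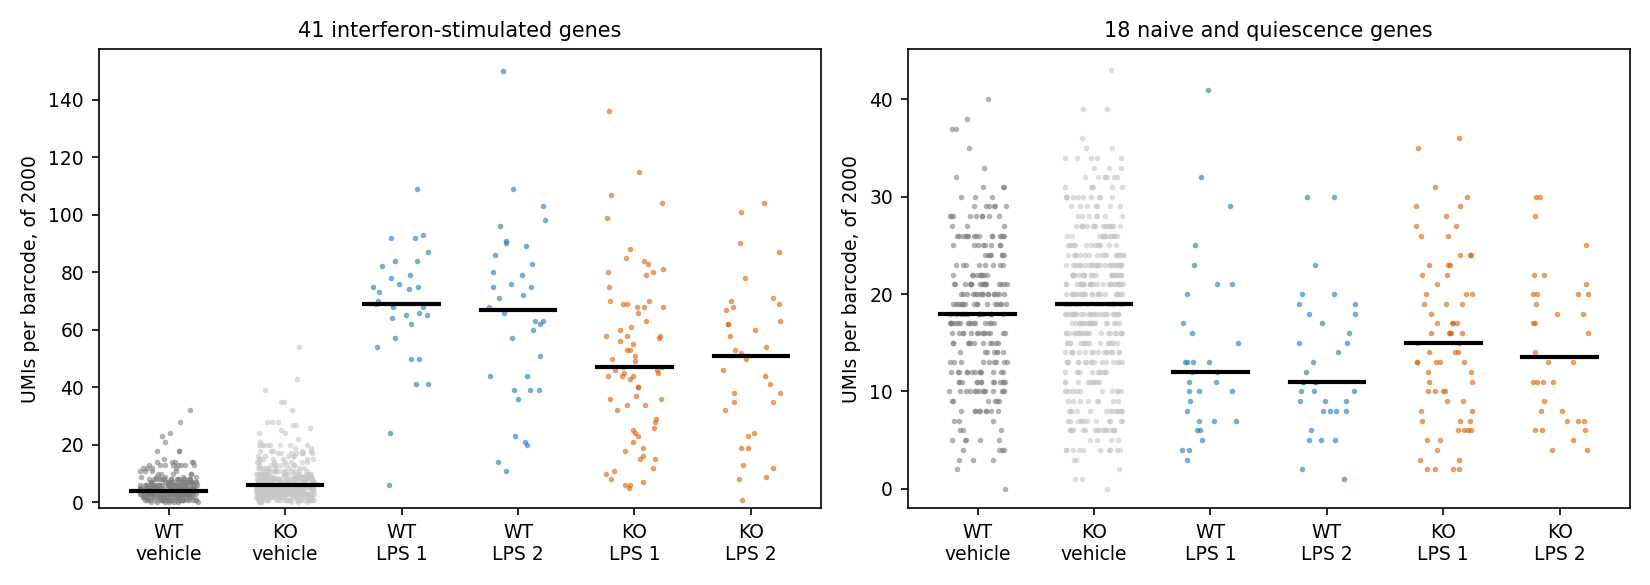
UMIs of the 41 interferon-stimulated genes (left) and of the 18 naive and quiescence genes (right) in each CD4 T cell barcode after thinning to 2000 UMIs, by library. Points are barcodes and black lines library medians, 4 and 6 in vehicle against 47 to 69 after LPS on the left and 18 and 19 against 11 to 15 on the right.

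Genes of interferon-gamma defence and antigen processing rose as a group. Of 30 listed genes, 26 rose, none fell and the median log2 fold change was 3.01. Gbp8, B2m, Tap2 and Irf8 were the 4 without a call, and all but Irf8 rose in the unmixed cells, where 29 of 30 were called. Gbp2, a guanylate-binding protein that attacks the vacuoles of intracellular microbes, was at 43.7 and 36.8 CPM in the vehicle libraries, 1656 and 1334 in WT LPS and 877 and 743 in KO LPS. All 4 LPS libraries were high, the WT pair above the KO pair, and the log2 fold change was 4.77 ± 0.30 (SE) (edgeR adjusted p = 0.00057). Gbp5 was even across LPS libraries, with 9.36 and 9.39 CPM in the vehicle libraries against 380.4 and 395 in WT LPS and 406 and 359 in KO LPS (5.34 ± 0.34 (SE), edgeR adjusted p = 0.00057). Iigp1, an immunity-related GTPase, was likewise even at 553 to 659 CPM after 10.9 and 26.7 CPM in vehicle (5.14 ± 0.32 (SE), edgeR adjusted p = 0.00057).

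Genes of the peptide supply of MHC class I were among the calls. Psmb8 and Psmb9, subunits of the immunoproteasome, had 469.8 to 475 and 199 to 221 CPM in the vehicle libraries against 831 to 1489 and 415 to 599 CPM after LPS. Psmb8 rose by 1.32 ± 0.24 (SE) on the log2 scale (edgeR adjusted p = 0.0254), Psmb9 by 1.20 (edgeR adjusted p = 0.0414) and the peptide transporter gene Tap1 by 1.80 (edgeR adjusted p = 0.0218). Nlrc5, the class I transactivator, rose by 1.90 (edgeR adjusted p = 0.0281). The calls of these 4 genes were lost without WT LPS 1 (adjusted p of 0.0803 to 0.157) and without WT LPS 2 (0.0558 to 0.102), and without either library 18 and 20 of the 30 listed genes were called. B2m, the light chain of class I, had 1524 and 1456 CPM in vehicle, 3856 and 3218 in WT LPS and 2324 and 1906 in KO LPS. It was not called over all members (0.88, edgeR adjusted p = 0.0642). Its fold change lay between 0.75 and 0.94 with any 1 LPS library left out.

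Transcripts of the chemokines Cxcl10 and Cxcl9, which attract CXCR3-bearing T cells, had some of the largest fold changes. Cxcl10 was at 3.12 and 1.44 CPM in the vehicle libraries, 3758 and 1734 in WT LPS and 1754 and 979 in KO LPS (9.74 ± 0.63 (SE), edgeR adjusted p = 0.000582). A Cxcl10 UMI was found in 26 of 33, 26 of 36, 48 of 76 and 20 of 40 members of the LPS libraries in order, against 2 and 3 members in vehicle. Cxcl9 rested on 3, 2, 5 and 1 barcodes after LPS, rose by 6.87 ± 1.09 (SE) (edgeR adjusted p = 0.0134) and lost the call without KO LPS 1 (adjusted p = 0.199). Serpina3g, a protease inhibitor that protects lymphocytes, rose from 6.24 and 0.722 CPM to 204 and 179.9 in WT LPS and 96.6 and 66.6 in KO LPS (5.76 ± 0.44 (SE), edgeR adjusted p = 0.00098). Sdc4, a heparan sulfate carrier, was called over all members (5.51 ± 0.56 (SE), edgeR adjusted p = 0.00227) but not in the unmixed cells (3.58, edgeR adjusted p = 0.136).

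Some of the largest rises were genes of myeloid cells. The rule for named genes left out 15 rises because their LPS level in CD4 T cells was under 20% of their level over all barcodes, among them Lcn2, Il1b, Cxcl2, Ccl3, Saa3 and Il1rn. Lcn2, a neutrophil iron-scavenging protein, went from 0.78 and 4.69 CPM to 747 and 439.7 in WT LPS and 1077 and 123 in KO LPS, yet this was 4.10% of its level over all barcodes. An Lcn2 UMI was found in 45.0% to 87.9% of members and in 43.0% to 79.9% of B cell barcodes of the LPS libraries, so the gene was about as frequent in a cell type outside the T cells. The part of free RNA in it was not tested. Of the lists of other cells' markers, 2 of 7 tested neutrophil genes rose (Lcn2 and Hdc), as did 1 of 16 monocyte and macrophage genes (Saa3) and 1 of 7 natural killer cell genes (Gzmb), while 2 of 5 B cell genes fell (H2-Aa and H2-Ab1). Over the unmixed cells 1 of 2 neutrophil genes, 3 of 5 monocyte and macrophage genes and 2 of 6 natural killer cell genes rose, and 1 gene of each of the last 2 lists and 1 of 2 B cell genes fell. Neutrophil genes made up 0.0231% and 0.0320% of member UMIs in the vehicle libraries and 0.0301% to 0.158% in the LPS libraries. The unmixed cells had 0.00273% and 0.00436% against 0.0232% to 0.0491%. Unmixed cells were picked by a low share of UMIs from lists that include the neutrophil, monocyte and macrophage, and B cell genes. These shares and the unmixed calls in those lists were thus limited in advance.

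Of 18 tested genes of cytokine signalling and its feedback, 4 rose and none fell, with a median log2 fold change of 0.69. In the unmixed cells 6 of 13 rose and 1 fell. Socs1, which blocks JAK kinases, was at 31.2 and 32.9 CPM in the vehicle libraries, 353 and 335 in WT LPS and 199 and 220.4 in KO LPS, with every LPS library above both vehicle libraries (3.06 ± 0.29 (SE), edgeR adjusted p = 0.00196). Socs3, the inhibitor of interleukin-6 family signals, was at 35.9 and 48.4 CPM in vehicle, 362 and 309.8 in WT LPS and 358 and 210.1 in KO LPS (2.90 ± 0.35 (SE), edgeR adjusted p = 0.0043). Cish, induced by interleukin-2 through STAT5, went from 15.6 and 13.7 CPM to 274 and 175 in WT LPS and 91 and 61.5 in KO LPS (3.17 ± 0.38 (SE), edgeR adjusted p = 0.00447). The kinase gene Jak2 rose by 1.73 ± 0.31 (SE) (edgeR adjusted p = 0.0228), a call lost without WT LPS 1 (adjusted p = 0.0678) or WT LPS 2 (0.0671). Of these 4, Jak2 encodes a kinase and the other genes encode inhibitors.

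Genes that NF-kB induces rose in part. Of 20 listed genes, 7 rose and none fell, with a median of 1.53 on the log2 scale, and in the unmixed cells 11 of 17 rose. Nfkbia, which encodes the inhibitor that holds NF-kB in the cytoplasm, was at 225 and 263 CPM in the vehicle libraries, 1522 and 1344 in WT LPS and 1191 and 728 in KO LPS (2.27 ± 0.29 (SE), edgeR adjusted p = 0.00556). Nfkbiz lay at 29.6 and 46.2 CPM in vehicle and at 116 to 174 CPM after LPS (1.91 ± 0.29 (SE), edgeR adjusted p = 0.0121). Nfkb2, Relb, Birc3 and Icam1 rose by 1.93, 2.02, 1.88 and 2.83. Their edgeR adjusted p-values of 0.0201, 0.0233, 0.0206 and 0.0358 became 0.0597 to 0.112 without WT LPS 1 and 0.0574 to 0.0771 without WT LPS 2, where 3 of the 20 listed genes remained called. Bcl3 was the other gene called over all members. Tnfaip3, which encodes A20, had 78 and 142 CPM before and 164 to 287 CPM after LPS and was not called over all members (edgeR adjusted p = 0.0956) but rose in the unmixed cells (0.85, edgeR adjusted p = 0.0177).

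Early activation genes gave 4 rises among 13 tested, with a median log2 fold change of 1.73, and 5 among 11 in the unmixed cells. Cd69, which retains lymphocytes in tissue by pulling S1pr1 from the surface, was at 157 and 205 CPM in the vehicle libraries, 728 and 519.7 in WT LPS and 622 and 507 in KO LPS (1.73 ± 0.28 (SE), edgeR adjusted p = 0.0153). A Cd69 UMI was found, after thinning to 2000 UMIs, in 29.9% and 36.1% of vehicle members and in 58.3% to 75.8% of LPS members. Batf, a partner of AP-1 in effector cells, was at 39 and 34.7 CPM in vehicle, 209 and 279.8 in WT LPS and 99.5 and 76.9 in KO LPS (2.01 ± 0.31 (SE), edgeR adjusted p = 0.0124). Tnfsf8, the CD30 ligand, rose by 2.42 ± 0.43 (SE) (edgeR adjusted p = 0.0221), and it and Cd69 were not called without WT LPS 1 (adjusted p = 0.0597 and 0.0656). Tnf, the tumour necrosis factor gene, rested on 6, 3, 9 and 4 barcodes in the LPS libraries in order. It was called over all members (2.97 ± 0.47 (SE), edgeR adjusted p = 0.013) but not in the unmixed cells (2.25, edgeR adjusted p = 0.426).

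Of 16 tested genes of the regulatory T cell list 3 rose, all receptors that activated T cells also carry. Il2ra, the high-affinity interleukin-2 receptor chain CD25, was at 8.58 and 11.9 CPM in the vehicle libraries, 107 and 225 in WT LPS and 32.7 and 56.4 in KO LPS (3.02 ± 0.48 (SE), edgeR adjusted p = 0.0143). Tnfrsf4, the costimulatory receptor OX40, was at 20.3 and 10.8 CPM in vehicle, 167 and 405 in WT LPS and 58.3 and 66.6 in KO LPS (3.15 ± 0.45 (SE), edgeR adjusted p = 0.00862). Both were highest in WT LPS 2, and the LPS libraries did not overlap the vehicle libraries. In WT LPS 2, 1 barcode gave 44.4% of the Il2ra UMIs, found in 8 members, and 54.3% of the Tnfrsf4 UMIs, found in 9. Il2rb rose by 1.89 ± 0.34 (SE) (edgeR adjusted p = 0.0235), a call lost without WT LPS 2 (adjusted p = 0.0696). The median of the list was 1.41, and in the unmixed cells 6 of 13 rose, with Ctla4, Icos and Tnfrsf18 added. A UMI of Il2ra was found in 2.72% and 4.07% of vehicle members and in 15.8% to 36.4% of LPS members, where it also appeared in 16.1% to 29.2% of B cell barcodes.

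Of 18 tested effector and memory genes 3 rose and none fell. Rgs1, which dampens chemokine receptor signals in tissue-resident cells, was at 121 and 121 CPM in vehicle, 761 and 639.6 in WT LPS and 480.4 and 743 in KO LPS (2.43 ± 0.31 (SE), edgeR adjusted p = 0.00545). Cxcr6 and Prdm1 were the other 2. Cxcr6 rose by 2.27 ± 0.49 (SE) (edgeR adjusted p = 0.0468), with 0.159 without WT LPS 1, and Prdm1 by 2.08 ± 0.39 (SE) (edgeR adjusted p = 0.0289), with 0.0956 and 0.0727 without WT LPS 1 or 2. Over the unmixed cells 8 of 17 rose, S100a4, S100a6, S100a11, Anxa2 and Id2 among them. Of the inhibitory receptors, Cd200 and Cd274 rose and Vsir fell among 8 tested, and in the unmixed cells 3 rose and 1 fell of 5.

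Cd274, the PD-1 ligand PD-L1, went from 35.9 and 34.3 CPM to 311 and 295 in WT LPS and 529 and 118 in KO LPS. Its log2 fold change was 3.18 ± 0.59 (SE) (edgeR adjusted p = 0.0276), with adjusted p-values of 0.0798 and 0.0664 without WT LPS 1 or 2, and 1 barcode gave 50.8% of its KO LPS 1 UMIs. Cd200 rose by 2.51 ± 0.40 (SE) (edgeR adjusted p = 0.0143), not called without WT LPS 1 (adjusted p = 0.0564). Among survival and death genes, 5 of 22 rose, and 9 of 16 in the unmixed cells. The 5 were Casp8, Tnfsf10, Bcl2a1d, Gadd45b and Fas. The death receptor Fas was at 22.6 and 22.4 CPM in the vehicle libraries and 107 to 135 after LPS (2.42 ± 0.33 (SE), edgeR adjusted p = 0.00705), and Gadd45b rose by 3.12 ± 0.34 (SE) (edgeR adjusted p = 0.0031). Bcl2a1d, an inhibitor of apoptosis, rose by 2.12 ± 0.36 (SE) (edgeR adjusted p = 0.0183) and was not called without WT LPS 2 (0.0596). Casp8 lost its call without WT LPS 1 or 2 (adjusted p = 0.0911 and 0.0719), and Tnfsf10, the death ligand TRAIL, without any of WT LPS 1, WT LPS 2 and KO LPS 1 (0.1, 0.113 and 0.139). Hif1a, the hypoxia factor, rose by 2.44 ± 0.28 (SE) (edgeR adjusted p = 0.00361) and was the called gene among 15 of the glycolysis list, where 2 of 10 rose in the unmixed cells. Among all genes tested, 3.29% rose over all members and 11.1% in the unmixed cells.

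**Figure D3:**
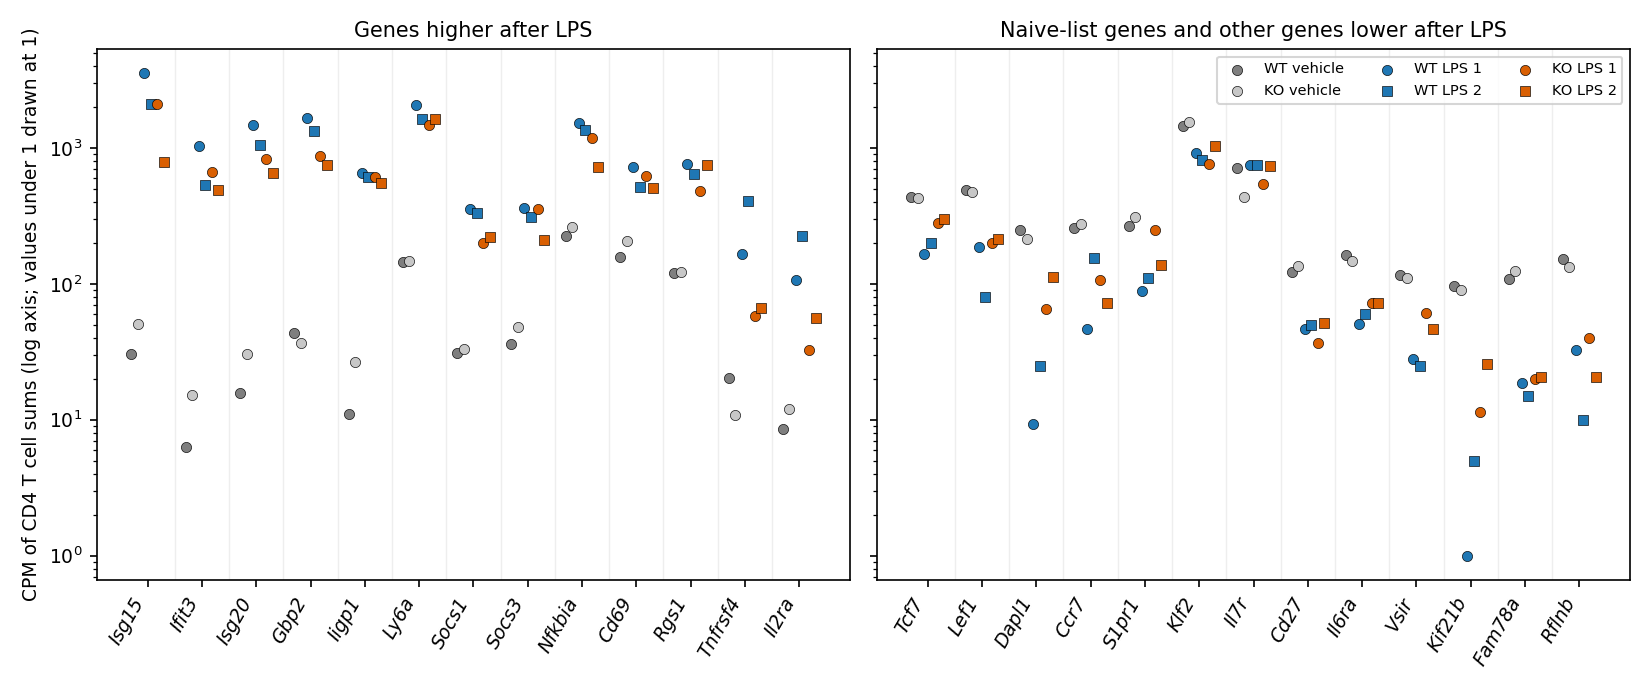
CPM of summed CD4 T cell UMIs (log axis, values under 1 drawn at 1) for genes higher after LPS (left) and for naive-list and other genes (right). Each symbol is 1 library. On the left all 4 LPS libraries lie above both vehicle libraries, and on the right Tcf7, Lef1 and Dapl1 lie below them after LPS while Il7r overlaps them.

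Genes of naive and resting T cells were mostly lower after LPS, with few calls over all members. Of 18 listed genes 2 fell (Dapl1 and Lef1), none rose and the median log2 fold change was -0.75. Among unmixed cells 9 fell and 2 rose. Lef1 was at 494 and 471 CPM in the WT and KO vehicle libraries, 186 and 80 in WT LPS 1 and 2, and 200.4 and 215 in KO LPS 1 and 2. The LPS libraries lay below both vehicle libraries, and the log2 fold change was -1.54 ± 0.32 (SE) (edgeR adjusted p = 0.0442), a call lost without WT LPS 2 (adjusted p = 0.0886). Dapl1, a transcript of naive T cells, was at 249 and 215 CPM in vehicle, 9.28 and 25 in WT LPS and 65.4 and 113 in KO LPS (-2.60 ± 0.37 (SE), edgeR adjusted p = 0.00862).

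Tcf7 was at 433 and 429.7 CPM in the vehicle libraries, 167 and 199.9 in WT LPS and 279 and 302 in KO LPS. All 4 LPS libraries lay lower, but the fold change of -0.90 ± 0.24 (SE) did not pass over all members (edgeR adjusted p = 0.0959). It passed in the unmixed cells (-0.89, edgeR adjusted p = 0.00238). With any 1 LPS library left out, the fold change of Tcf7 lay between -0.97 and -0.84. The lymph node homing receptor gene Ccr7 had 257 and 276 CPM in vehicle, 46.4 and 155 in WT LPS and 107 and 71.7 in KO LPS. S1pr1, which lets T cells leave tissue and lymph nodes, had 268 and 312, 88.2 and 109.9 and 250.1 and 138 CPM, and Klf2, the factor that drives S1pr1, had 1441 and 1552, 914 and 814 and 759 and 1030.1 CPM in the same order.

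The log2 fold changes of Ccr7, S1pr1 and Klf2 were -1.47, -1.04 and -0.77 and did not pass over all members (edgeR adjusted p = 0.11, 0.13 and 0.123). All 3 fell in the unmixed cells, with log2 fold changes of -1.48, -1.35 and -0.80 (edgeR adjusted p = 0.000528, 0.000115 and 0.000205). With any 1 LPS library left out, the fold change of Ccr7 over all members lay between -2.03 and -1.155. That of S1pr1 lay between -1.36 and -0.89, and that of Klf2 between -0.89 and -0.72. After thinning, a Ccr7 UMI was found in 40.9% and 46.6% of vehicle members and in 6.06% to 22.2% of LPS members, a Lef1 UMI in 66.8% and 63.2% against 25% to 37.8%, and a Klf2 UMI in 90.5% and 92.1% against 57.6% to 70.3%.

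Some naive genes were not lower. Slfn2, which keeps T cells quiescent, was at 509 and 445 CPM in the vehicle libraries, 1267 and 1009 in WT LPS and 812 and 764 in KO LPS, higher in every LPS library but not called over all members (0.99, edgeR adjusted p = 0.0634). It rose in the unmixed cells (0.71, edgeR adjusted p = 0.00378). With any 1 LPS library left out, the fold change of Slfn2 over all members lay between 0.91 and 1.07. Il7r stayed at 541 to 755 CPM after LPS against 712 and 434 CPM in vehicle and the groups overlapped (0.31, edgeR adjusted p = 0.608). Per barcode, the 18 genes together gave a median of 18 and 19 of 2000 UMIs in WT and KO vehicle, 12 and 11 in WT LPS 1 and 2, and 15 and 13.5 in KO LPS 1 and 2.

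T cell receptor signalling genes gave 1 called fall, Cd27, among 23 tested, with a median of -0.53. Cd27, a costimulatory receptor of naive and memory cells, was at 122 and 135 CPM in vehicle, 46.4 and 50 in WT LPS and 37 and 51.2 in KO LPS (-1.50 ± 0.30 (SE), edgeR adjusted p = 0.0365), and lost the call without WT LPS 1 (0.128) or WT LPS 2 (0.0951). Among unmixed cells 9 of the 23 fell, Cd28, Lck, Lat, Trbc1 and Trbc2 among them, at log2 fold changes whose median over the list was -0.54. Trac, the receptor alpha chain constant gene, had 381 and 354 CPM in vehicle and 256 to 436 CPM after LPS and did not pass (-0.19 on the log2 scale). Ribosomal protein genes gave no call among 77, with a median of -0.06.

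Outside the lists, the falls named by size were led by genes of few UMIs. Kif21b, a kinesin that damps microtubule growth at the T cell synapse, was at 96.7 and 90.3 CPM in the vehicle libraries, 0 and 5.00 in WT LPS and 11.4 and 25.6 in KO LPS (-3.87 ± 0.57 (SE), edgeR adjusted p = 0.00959). Fam78a went from 109 and 124 CPM to 15 to 20.5 CPM (-2.65 ± 0.34 (SE), edgeR adjusted p = 0.00545). Rflnb, Cmah, Hvcn1 and Hsd11b1 fell, with log2 fold changes of -2.42, -2.20, -2.91 and -2.44 over all members (edgeR adjusted p = 0.0191, 0.0267, 0.0417 and 0.0254) and also in the unmixed cells. Without WT LPS 1 the p-values of Cmah, Hvcn1 and Hsd11b1 were 0.0882 to 0.107, and without WT LPS 2 those of all 4 were 0.0523 to 0.116. Hsd11b1 encodes the enzyme that regenerates active glucocorticoid, and Hvcn1 a proton channel.

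Il6ra, the interleukin-6 receptor, Vsir, the checkpoint protein VISTA, and Rgs2 were the called falls of the cytokine receptor, inhibitory receptor and trafficking lists. Of 24 cytokine receptor genes 2 rose and 1 fell (5 and 1 of 21 in the unmixed cells), and of 25 trafficking genes 3 rose and 1 fell (4 and 4 of 23). Over all genes tested 3.29% rose and 0.498% fell, and in the unmixed cells 11.1% and 5.2%. The 1 fall of 21 was near that last share. Il6ra was at 147 to 163 CPM in vehicle and 51 to 72.5 after LPS (-1.29 ± 0.27 (SE), edgeR adjusted p = 0.0441), and Vsir at 111 to 116 and 25 to 61.1 (-1.57 ± 0.31 (SE), edgeR adjusted p = 0.0364). All 3 lost the call without WT LPS 1 (0.0774 to 0.157) or WT LPS 2 (0.0951 to 0.107), and Rgs2 in the unmixed cells too (-0.89, edgeR adjusted p = 0.108).

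Genes of antigen-presenting and epithelial cells were among the falls. H2-Eb1, an MHC class II chain of antigen-presenting cells, fell from 520.3 and 229 CPM in the vehicle libraries to 83.5 and 89.9 in WT LPS and 28.4 and 5.12 in KO LPS (-3.01 ± 0.38 (SE), edgeR adjusted p = 0.00527). Among unmixed cells its log2 fold change was -0.33 (edgeR adjusted p = 0.878). The unmixed cells were picked by genes that include the class II chains H2-Aa and H2-Ab1, so this value was not free of the rule. Cst3, abundant in dendritic cells and macrophages, fell over all members (-2.52, edgeR adjusted p = 0.00196) and, with -1.17, in the unmixed cells (edgeR adjusted p = 0.00115). Krt19, Hpgd and Ckb fell, with log2 fold changes of -5.24, -3.24 and -3.21 over all members (edgeR adjusted p = 0.0349, 0.0414 and 0.0143) and had too few UMIs to be tested in the unmixed cells. Without WT LPS 1 their p-values were 0.0678 to 0.157, and Krt19 and Hpgd also lost the call without WT LPS 2 (0.075 to 0.0786). Monocyte and macrophage genes made up 0.733% and 0.714% of member UMIs in the vehicle libraries and 0.389% to 0.758% in the LPS libraries, and B cell genes 0.342% and 0.178% against 0.0125% to 0.110%. Their part in these falls was not tested.

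Counts of called helper subset genes differed between all members and the unmixed cells. None of 7 tested type 1, 3 type 2 and 4 follicular helper genes passed (edgeR adjusted p at most 0.05), and 5 of the type 1 genes had an unadjusted p under 0.05 upward. In the unmixed cells 3 of 7 type 1 genes rose (Hopx, Bhlhe40 and Ifng), as did 4 of 8 of the interleukin-17 list (Il17f, Tmem176b, Maf and Il22), and none of 1 type 2 and 3 follicular helper genes. Over all members Maf was the called gene of 8 in the interleukin-17 list, with 27.3 and 43 CPM in vehicle, 380.4 and 179.9 in WT LPS and 126 and 133 in KO LPS (2.47 ± 0.38 (SE), edgeR adjusted p = 0.0124). Ifng, the type 1 cytokine, was at 5.46 and 12.3 CPM in vehicle, 4.64 and 225 in WT LPS and 37 and 20.5 in KO LPS, so WT LPS 2 stood high and WT LPS 1 lay below both vehicle libraries. It was not called over all members (2.83, edgeR adjusted p = 0.224) but passed in the unmixed cells (2.85, edgeR adjusted p = 0.00699). Over all members the fold change of Ifng was 0.54 without WT LPS 2 and 3.33 without WT LPS 1.

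Mki67 and Top2a, genes of dividing cells, rose, and few barcodes carried them. Mki67 was at 25 and 76.9 CPM in vehicle, 129.9 and 229.9 in WT LPS and 149 and 364 in KO LPS (2.27 ± 0.46 (SE), edgeR adjusted p = 0.0381), and Top2a at 24.2 and 84.9, 237 and 315 and 115.1 and 297 CPM in the same order (2.36 ± 0.44 (SE), edgeR adjusted p = 0.0288). A Mki67 UMI was found in 3, 4, 14 and 6 members of the LPS libraries in order, and 1 barcode gave 46.4% of its UMIs in WT LPS 1 and 91.3% in WT LPS 2. Both calls were lost without WT LPS 1 (0.0601 and 0.0647) or WT LPS 2 (0.0913 and 0.0721). They were 2 of 18 cell cycle genes, and 6 of 15 rose in the unmixed cells. Gzmb, a granzyme of cytotoxic cells, rose (3.97, edgeR adjusted p = 0.0036), but 95.7% of its UMIs in WT LPS 1 came from 1 barcode. Klf9, a glucocorticoid target, was called in its list of 12 (1.83, edgeR adjusted p = 0.045) and lost the call without WT LPS 1, WT LPS 2 or KO LPS 1 (0.0976, 0.129 and 0.0967). The unmixed cells gave 2 rises of 7 in that list, Txnip and Dusp1. Genes induced by tissue digestion gave 1 call among 18 (Ier3) and 1 among 17 in the unmixed cells (Zfp36). Among all genes tested, 3.79% were called over all members and 16.3% in the unmixed cells.

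**Figure D4:**
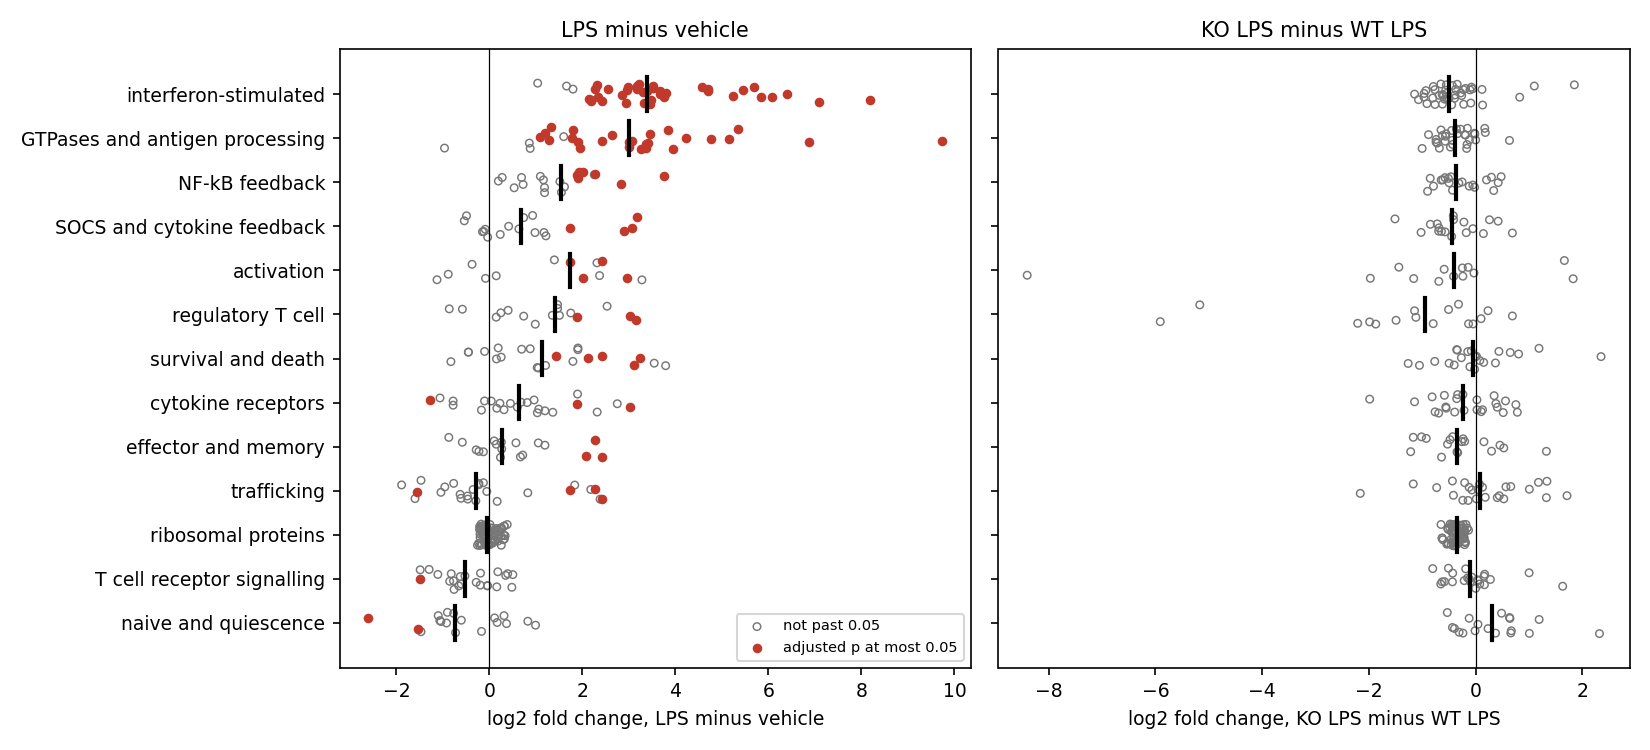
Log2 fold changes of the tested genes of 13 lists for LPS minus vehicle (left) and KO LPS minus WT LPS (right). Circles are genes, filled red at an adjusted p of at most 0.05, and black bars are list medians. The interferon-stimulated list (median 3.39) lies farthest right on the left panel, and no gene passed on the right panel, where its median is -0.50.

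No single gene passed between NOS1 KO and WT CD4 T cells under LPS over all members. With 2 libraries a side, none of 7226 genes passed edgeR's test (0.0%), 467 had an unadjusted p under 0.05, and DESeq2 called Ppbp and Gng11 higher and Ccl5 lower. Ppbp is on the platelet and erythroid list, whose genes stood high in members of KO LPS 1 alone. The part of that RNA in the DESeq2 calls was not tested. Without a library the counts were 0 higher and 0 lower without WT LPS 1 or WT LPS 2, 17 and 34 without KO LPS 1, and 312 and 31 without KO LPS 2. In each of these fits 1 genotype has a single LPS library and the other supplies the spread, so they show how far the count depends on the libraries and are not read as genotype calls. By order alone, 2671 genes (37.0%) had both KO libraries on the same side of both WT libraries. In the unmixed cells 7 of 4539 genes passed (0.154%), with Dapl1 and Hmgb2 higher (0.0441%) and Gzmb, Ccl5, Isg15, Ifi27l2a and Odc1 lower in KO (0.11%).

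Among these, Dapl1 was the naive gene with 9.28 and 25 CPM in WT LPS 1 and 2 and 65.4 and 113 in KO LPS 1 and 2. Its KO minus WT difference was 2.32 ± 0.57 (SE) over all members (unadjusted p = 0.00379, edgeR adjusted p = 0.754) and 2.81 in the unmixed cells (edgeR adjusted p = 0.0177). The WT LPS levels of Dapl1 rest on few UMIs, since the member sums of WT LPS 1 and 2 held 230423 and 207585 UMIs. Isg15 had a KO minus WT difference of -0.96 over all members (edgeR adjusted p = 0.783), where KO LPS 1 lay just under WT LPS 2, and of -1.05 in the unmixed cells (edgeR adjusted p = 0.0271). Ifi27l2a, an interferon-induced mitochondrial protein, was at 5962 and 4612 CPM in WT LPS and 2415 and 2624 in KO LPS, with -1.07 (edgeR adjusted p = 0.754) over all members and -0.79 (edgeR adjusted p = 0.0271) in the unmixed cells. Hmgb2, a chromatin protein of dividing cells, was at 1039 and 755 and 875 and 1937 CPM (0.64, edgeR adjusted p = 0.811, and 1.29 with edgeR adjusted p = 0.0271 in the unmixed cells), and over all members its difference was -0.03 without KO LPS 2. A single barcode gave 21.9% to 68.2% of its UMIs in each LPS library. Ccl5 had 2227 and 1534 and 574 and 179 CPM and was not called over all members (-2.28, edgeR adjusted p = 0.754) but in the unmixed cells (-1.30, edgeR adjusted p = 0.0271), and 1 barcode gave 48.0% to 62.9% of its UMIs in each LPS library. Gzmb had 320.1 and 175 and 46.9 and 30.7 CPM and was likewise not called over all members (-2.60, edgeR adjusted p = 0.754) but in the unmixed cells (-2.68, edgeR adjusted p = 0.00912), with the barcode named above behind WT LPS 1.

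KO minus WT differences were mostly negative among interferon genes, without calls over all members. Over the 41 interferon-stimulated genes the median difference was -0.50 and 36 were negative, against a median of 0.04 and 3421 negative of 7226 over all genes. The unmixed cells gave -0.34 and 35 negative. Without WT LPS 1 the median was -0.16 and 26 were negative, without WT LPS 2 it was -0.74 and 36, without KO LPS 1 -0.71 and 40, and without KO LPS 2 -0.36 and 33. None of the 41 passed over all members, 9 had an unadjusted p under 0.05, and library totals as the scale gave a median of -0.41.

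Il2ra, Tnfrsf4 and Cish, picked after their values were seen, had negative differences that did not pass. Il2ra was at 107 and 225 CPM in WT LPS and 32.7 and 56.4 in KO LPS (-1.98 ± 0.52 (SE), edgeR adjusted p = 0.754), Tnfrsf4 at 167 and 405 and 58.3 and 66.6 (-2.21 ± 0.48 (SE), edgeR adjusted p = 0.754), and Cish at 274 and 175 and 91 and 61.5 (-1.51 ± 0.39 (SE), edgeR adjusted p = 0.754). In all 3 both KO libraries lay below both WT libraries, a pattern 37.0% of all genes showed in either direction, and the single barcodes named above weigh in the WT LPS 2 values of Il2ra and Tnfrsf4. Socs1 had a difference of -0.72 ± 0.30 (SE) (edgeR adjusted p = 0.754). Lef1 and Tcf7, at 200.4 and 215 and 279 and 302 CPM in KO LPS against 186 and 80 and 167 and 199.9 in WT LPS, had differences of 0.64 and 0.66 (edgeR adjusted p = 0.811 and 0.783). The naive list had a median difference of 0.30, with 7 of 18 genes negative.

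The genotypes' LPS responses were compared through the interaction of genotype and treatment, which rests on 1 vehicle library per genotype. Of 7226 genes 1 passed (0.0138%). It was Xist, a mark of sex that the WT vehicle library lacked (-12.98). In the unmixed cells 5 of 4539 passed (0.11%), with Dapl1 and Ddx3y higher (0.0441%) and Xist, Hist1h2ap and the predicted gene Gm10076 lower (0.0661%). The count was 12 higher and 29 lower without KO LPS 1 and 168 and 24 without KO LPS 2. Each genotype was also set against its own vehicle library. In WT 108 genes rose (1.49%) and 4 fell (0.0554%) of 7226, 1.55% in all, and in KO 14 rose (0.194%) and 0 fell, 0.194% in all. The unmixed cells gave 346 higher (7.62%) and 155 lower (3.41%) of 4539 in WT, 11% in all, and 281 higher (6.19%) and 36 lower (0.793%) in KO, 6.98% in all. These counts were not tested against each other and moved with the libraries and the tool. Genes called in WT and KO were 10 and 8 without WT LPS 1, 64 and 8 without WT LPS 2, 566 and 174 without KO LPS 1 and 677 and 697 without KO LPS 2, and DESeq2 called 194 and 120. The median response of the interferon-stimulated list was 3.74 in WT and 2.88 in KO.

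Before LPS, interferon genes were mostly higher in the KO than in the WT vehicle library, with no replicate to test it. Of 39 interferon-stimulated genes with at least 10 UMIs, 34 were higher in KO vehicle, 13 of them with exact 95% Poisson intervals that did not overlap, and none lower with such intervals. The median log2 ratio of KO over WT vehicle was 0.44, against -0.002 over 10725 genes, of which 5329 were higher in KO. Ifit1 was at 12.5 CPM in WT vehicle (interval 7.10 to 20.3) and 39.0 in KO vehicle (32 to 47.1). Il7r went the other way, with 712 CPM in WT vehicle and 434 in KO vehicle. These intervals cover counting error only. Members with a sex mark held only Y-linked genes in WT vehicle and only Xist in KO vehicle. Genotype and sex therefore cannot be told apart between the vehicle libraries.

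The LPS response of CD4 T cells was set against that of CD8 T cells of the same libraries (2006 barcodes), with the library as a block and gene by gene over 10664 genes. None of the genes passed edgeR's test for a difference (0.0%), 540 had an unadjusted p under 0.05, and DESeq2 called 14 higher and 4 lower. In the unmixed cells 51 differences were higher (0.647%) and 15 lower (0.19%) in CD4 cells among 7884 genes, 0.837% in all. The count was 62 and 68 without KO LPS 1 and 1 and 1 without KO LPS 2. The median of the interferon-stimulated list was 3.39 in CD4 and 3.33 in CD8 T cells.

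Cxcr6, a homing receptor of tissue-resident T cells, had 7.02 to 15.5 CPM in vehicle and 32.7 to 107 after LPS in CD4 cells, and 30 to 32.7 and 9.64 to 26 CPM in CD8 cells. The CD4 minus CD8 difference of its response was 3.26 ± 0.54 (SE) (edgeR adjusted p = 0.29) over all members and 2.97 (edgeR adjusted p = 0.000508) in the unmixed cells. Gata3, the factor of type 2 helper cells, stayed at 45 to 55.7 CPM in CD4 cells after 39.8 to 60.7 CPM in vehicle, but was 22.2 to 37.3 and then 3.54 to 9.71 CPM in CD8 cells (1.98 ± 0.36 (SE), edgeR adjusted p = 0.313, and 2.28 with edgeR adjusted p = 0.00117 in the unmixed cells). Ly6a had a smaller fold in CD4 cells (3.53) than in CD8 cells (4.50), starting from 146 to 148 against 35.9 to 49.1 CPM in vehicle (-0.94 ± 0.24 (SE), edgeR adjusted p = 0.561, and -1.06 with edgeR adjusted p = 0.00298 in the unmixed cells).

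Against B cells the differences were many. Of 12949 genes, 222 had a higher (1.71%) and 551 a lower response (4.26%) in CD4 T cells, 5.97% in all. The unmixed cells gave 592 (5.11%) and 949 (8.18%) of 11595, 13.3% in all. Without a library the counts ran from 260 to 320 higher and from 338 to 963 lower, the most without KO LPS 1. Il7r was 434 to 712 CPM in vehicle and 541 to 755 after LPS in CD4 cells but was 6.52 to 6.64 CPM in vehicle and 89.5 to 161 CPM after LPS in B cells, a difference in response of -4.01 ± 0.34 (SE) (edgeR adjusted p = 1.80e-05). Ncl and Npm1, nucleolar proteins of growing cells, were 425 to 442 and 587 to 642 CPM in vehicle and 2125 to 4257 and 1641 to 3614 CPM after LPS in B cells, and 519 to 739.5 and 702 to 1304 CPM in CD4 cells after LPS (-2.45 ± 0.20 (SE) and -2.15 ± 0.23 (SE), edgeR adjusted p = 1.80e-05 and edgeR adjusted p = 0.000133). Gbp5 responded more in CD4 cells, 5.34 against 3.36 on the log2 scale (1.97 ± 0.28 (SE), edgeR adjusted p = 0.000738), as did Ly6a, 3.53 against 1.74 (1.75 ± 0.30 (SE), edgeR adjusted p = 0.00262). Ndrg3 and Arid5b had CD4 levels of 46.8 to 52.4 and 37.4 to 59.9 CPM in vehicle and 94.9 to 163 and 178 to 259.8 after LPS, against 20.6 to 20.7 and 78.8 to 91.1, then 6.58 to 7.62 and 49.5 to 71.6 CPM in B cells (2.94 ± 0.31 (SE) and 2.66 ± 0.36 (SE), edgeR adjusted p = 0.000133 and edgeR adjusted p = 0.000546). The interferon-stimulated list had medians of 3.39 in CD4 and 3.20 in B cells.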

How the data were processed

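The authors deposited UMI count matrices of 6 droplet libraries, made with Cell Ranger 6.1.0 on mm10 and handled with Seurat 4.1.0 in R 4.1.3, per the submitters' processing notes, which name no role for each tool. The deposited counts are whole UMIs per gene and barcode. Barcodes were gated by transcript, and mixed barcodes were defined after the data were seen, as were the counts without them. UMIs were summed per library over members, filtered with filterByExpr, scaled by TMM and tested with edgeR 4.0.16 in R 4.3.3 (quasi-likelihood, 1 coefficient per group, Benjamini-Hochberg threshold 0.05), with DESeq2 1.42.0 as an alternative. The response difference from CD8 and B cells had the library as a block. Shares were tested with scipy 1.17.1 over libraries, with exact binomial (Clopper-Pearson) and Poisson 95% intervals that cover counting error only.

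Named genes were the 12 largest rises and 12 largest falls past the threshold with at least 50 CPM and no overlap between libraries, up to 4 per list by p, and a fixed set; other genes of the lists were named after their values were seen. The members and lists were chosen with earlier results of these data known. Doublets were marked by Scrublet (scanpy 1.11.5) in an alternative and otherwise kept. The test was run on simulated data of 7226 genes, in which 2- and 8-fold changes were all rises and 4- and 16-fold changes all falls. For LPS against vehicle it recovered 42% and 100% of these rises and 70% and 94% of these falls. For KO against WT it recovered 6% and 98% of the rises and 36% and 66% of the falls. Every simulated gene had the same spread, so these shares do not give the power of the test in the real sums. Fold and direction cannot be told apart in them. Replicate numbers were not taken as pairing the LPS libraries, and the labels do not say what a number shares. A comparison of Foxp3-positive with Foxp3-negative cells was planned and not run, because no library held 20 Foxp3-positive members. Some genes of the lists are counted but not reported singly here.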

Additional observations from a re-analysis of the deposited data

Results flagged for a closer look

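In 7 genes, 1 of the 4 LPS libraries stood apart from the other 3 by Dixon's ratio, which chance alone exceeds in about 1 of 20 groups. The number of genes screened is not given here, so the count of 7 cannot be set against the number chance would give. Rsad2 reached 3429 CPM in KO LPS 1, where 1 barcode gave 77.8% of its UMIs. Tnfsf8 was at 236.6 CPM and Cxcr6 at 106.7 CPM in WT LPS 1. Cd200 was at 132.2 CPM in KO LPS 1. Il7r was lowest in KO LPS 1, at 541.5 CPM. Ifng was highest in WT LPS 2, at 224.9 CPM. Btg2, an antiproliferative gene, was lowest in WT LPS 2, at 209.9 CPM. The LPS response of Xist differed between the genotypes by -12.98 on the log2 scale (edgeR's interaction test), and WT vehicle held Y-linked UMIs without Xist while both WT LPS libraries held Xist.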

How the results depend on the processing

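Counts of called genes moved with the processing more than directions did. The KO minus WT difference of Hmgb2 under LPS, 0.64 over all members, ran from -0.027 without KO LPS 2, its 1 change of sign, to 1.11 without KO LPS 1. The cause of these moves was not tested, except that leaving out libraries or barcodes also changed the number of genes tested. For LPS against vehicle, genes called higher were 238 and became 495 without the filter on low counts, 506 without mixed barcodes, 108 in WT and 14 in KO libraries alone, and 144 to 666 without 1 LPS library. Genes called lower were 36 and became 58 with library totals, 16 with DESeq2, 183 without the filter, 21 with at least 3 CD3 UMIs, 261 with thinned barcodes, 236 without mixed barcodes, 4 and 0 in WT and KO libraries alone, and 9 to 310 without 1 library. With library totals the median over all genes moved from -0.03 to -0.13. For KO against WT under LPS the counts higher and lower were 2 and 1 with DESeq2, 205 and 26 without the filter, 3 and 6 with thinned barcodes, 2 and 5 without mixed barcodes, and 0 to 312 and 0 to 34 without 1 library. For the genotype difference in response they were 1 higher with DESeq2, 66 and 12 without the filter, 3 lower with thinned barcodes, 2 and 3 without mixed barcodes, and 0 to 168 and 1 to 29 without 1 library. Against CD8 T cells they were 86 and 38 without the filter, 14 and 4 with DESeq2, 51 and 15 without mixed barcodes, and 0 to 62 and 0 to 68 without 1 library. Against B cells 337 were higher with library totals, 437 without the filter, 592 without mixed barcodes and 260 to 320 without 1 library, and 329 were lower with DESeq2, 949 without mixed barcodes and 338 to 963 without 1 library. A replicate block on the 4 LPS libraries called 0 higher and 0 lower of 3235 genes, as did the fit without it, and deviations of same-numbered libraries correlated at 0.00628 over genes, so the numbers were not taken as pairing.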
